A study of Rattus norvegicus with 60 samples.

Results

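The comparison described here set lungs of rats given the highest dose of multi-walled carbon nanotubes (MWCNT), 180 mg/m3, against lungs of the air rats of the same exposure run. Its samples were chosen from the labels alone and are 11 of the 60 lung libraries of the series. They are 5 exposed rats, replicates 2 to 6 of the group MWCNT_180, and 6 rats in filtered air, the group air_180. The remaining exposed rat, replicate 1, carries the submitters' outlier label and was left out of the group; its values are given apart. All were male Fischer 344 rats (F344/DuCrl) of about 3 months of age. The exposed rats breathed MWCNT in a whole-body chamber for 6 hours a day on 3 days, which gave a cumulative 180 mg/m3, while the controls breathed filtered air at the same time, and lungs were taken 1 day after exposure ended. Total RNA came from a piece of lung, so each library holds whichever airway, vessel and alveolar tissue lay in that piece. A change of mRNA level in such a bulk sample cannot tell apart more or fewer cells of a type from more or less RNA per cell.

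Carbon nanotubes are thin, stiff, poorly soluble fibres. When inhaled, they are known to settle on the airways and alveoli, where macrophages take them up and injured epithelium releases alarm signals. Monocytes and neutrophils then enter from the blood, epithelial cells divide to replace lost ones, and fibroblasts may lay down matrix. The alveolar wall is a thin layer of type 1 epithelial cells over capillaries, with surfactant made by type 2 cells, and the conducting airways are lined by club, ciliated and goblet cells.

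The libraries held 9824265 to 12692692 counts in air and 8099154 to 9915848 in exposed rats, and the left-out replicate 1 held 7765588. Pearson's r of log2(CPM + 1) across genes, where CPM is counts per 1000000 counts of the library, was 0.985 to 0.994 between air rats, 0.989 to 0.993 between exposed rats and 0.980 to 0.987 between the groups. Lung-defining transcripts were abundant in every library, with surfactant protein C (Sftpc) at 8786 to 12071 CPM. Air replicates 2, 3 and 4 held more large-airway and heart transcripts than the other 3 air rats. Their Scgb3a1, a secretoglobin of large airways, was at 42.6, 74.4 and 41 CPM against 0.983 to 1.15 CPM in the other air rats and 3.75 to 20.3 CPM in exposed rats. The cytochrome Cyp2f4 of club cells was at 69.9, 101.98 and 77.6 CPM in these 3 rats, 19.7 to 32.5 CPM in the other air rats and 9.33 to 28.2 CPM in all rats given MWCNT. Albumin (Alb), the most abundant liver transcript, reached 146.5 CPM in air replicate 5 and 85.3 CPM in exposed replicate 2, and 827 CPM in the left-out replicate 1.

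Over all genes, exposure at 180 mg/m3 moved about as many genes up as down, but the rises were larger. Of 15995 genes tested, 3660 (22.9%) differed between exposed and air rats at an adjusted p under 0.05. Of these, 1921 rose (12.0% of genes tested) and 1739 fell (10.9%). Among the genes that rose, 364 rose more than 2-fold and 65 more than 4-fold, and the median rise was 1.39-fold. Among those that fell, 71 fell more than 2-fold and 12 more than 4-fold, with a median of 1.21-fold. Rises under 1.5-fold made up 58.4% of the rises, and falls under 1.5-fold made up 87.3% of the falls. The median log2 fold change of all genes was -0.01. The exposed libraries were the shallower ones, and with every library thinned to 8000000 counts 1735 genes rose and 1553 fell. With air replicates 2, 3 and 4 left out, 1483 rose and 1193 fell.

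**Figure D1:**
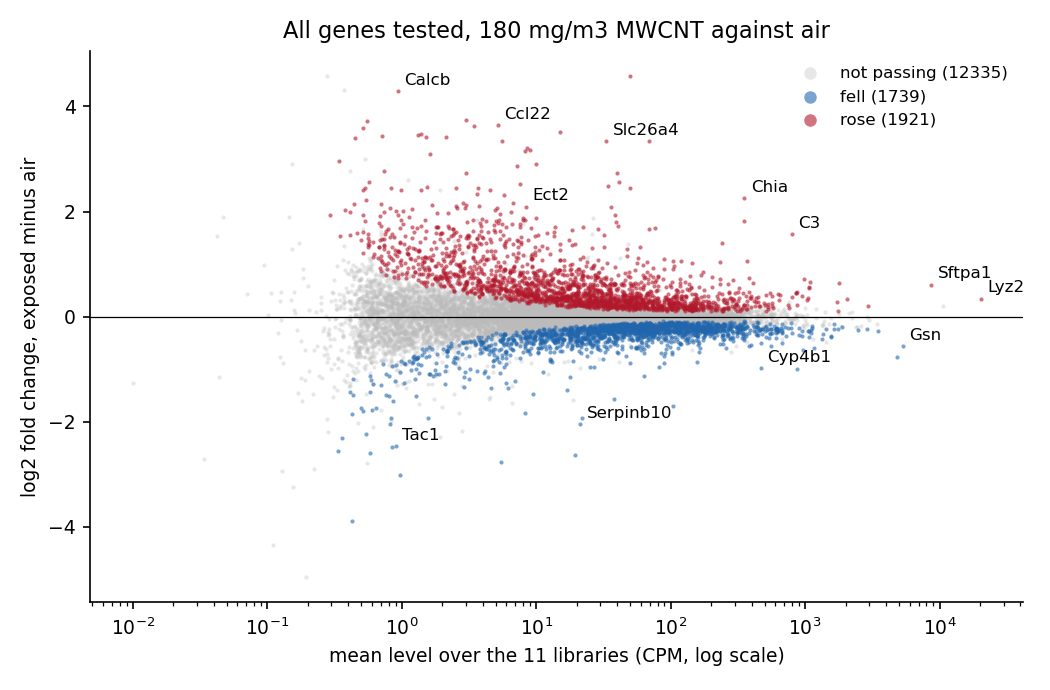
Each point is 1 of 15995 genes; the horizontal axis is its mean CPM over the 11 libraries on a log scale and the vertical axis its log2 fold change, exposed minus air. Red points rose (1921) and blue points fell (1739) at an adjusted p under 0.05, and the red cloud reaches farther from 0 than the blue one.

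Separation of single rats followed the same asymmetry. The CPM values of all 5 exposed rats lay above those of all 6 air rats in 1248 genes (7.8% of genes tested) and below them in 826 (5.16%). Of the genes that rose, 1179 (61.4%) had no overlap between the groups, as had 778 (44.7%) of those that fell. Summed over the genes that rose, the mean level went from 128965 CPM in air to 170251 CPM in exposed rats, and over those that fell from 222048 to 182168 CPM. The left-out replicate 1, which did not enter the main fit, lay above all 6 air rats in 1712 of the 1921 genes that rose (89.1%) and below all 6 in 1401 of the 1739 that fell (80.6%). The same count was not made over all genes tested, so these shares have no background to be read against.

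The largest rises by fold included several chemokines. Below the largest ones, the rises described here were in genes of varied function. Gabrp, a GABA-A receptor subunit of secretory epithelia, was at 17.3, 21.5, 21.4, 14.9 and 19.1 CPM in exposed replicates 2 to 6 and at 0.492 to 5.0 CPM in air, median 2.29 (log2 fold change 2.90 ± 0.38 SE, adjusted p = 4.76e-08). Every exposed rat was above the highest air rat. Tmc5, a transmembrane channel-like protein, was at 10.4, 14.5, 20.3, 9.43 and 13.9 CPM in exposed rats and 0.407 to 3.84 CPM in air, median 1.29 (2.88 ± 0.33 SE). Its lowest exposed rat was again above the highest air rat. With air replicates 2, 3 and 4, which held more airway transcripts, left out, the log2 fold changes were 4.96 for Gabrp and 4.29 for Tmc5. The adhesion receptor E-selectin (Sele), which activated endothelium uses to slow passing leukocytes, was at 9.38, 6.6, 6.63, 6.39 and 4.44 CPM in exposed rats and 0.668 to 1.5 CPM in air, median 1.28 (2.45 ± 0.25). Cd177, a surface protein of neutrophils that some epithelial cells also make, was at 62.5, 66.7, 76.4, 68 and 101.7 CPM in exposed rats and 6.64 to 15.5 CPM in air, median 11.8 (2.73 ± 0.27). For both genes the groups were far apart. The monocyte chemokine Ccl12 stayed under 1 CPM in each air rat (0.0955 to 0.655 CPM in air, median 0.326) and was at 4.44, 2.77, 3.0, 3.04 and 2.52 CPM in exposed rats (3.10 ± 0.42).

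Several other genes were among the large rises by fold. Aoc1, the diamine oxidase that degrades histamine and putrescine, was at 80.7, 70.1, 61.3, 46.9 and 49.2 CPM in exposed rats and 9.98 to 19.1 CPM in air, median 14.8 (log2 fold change 2.08 ± 0.19 SE, adjusted p = 7.33e-12). Every exposed rat was above every air rat. Chia, the acidic mammalian chitinase, was at 551, 652, 708, 723 and 488 CPM in exposed rats and 100.7 to 169 CPM in air, median 129 (2.26 ± 0.12). Noxa1, an activator subunit of epithelial NADPH oxidase, rose from 0.993 ± 0.43 CPM in air to 4.38 ± 1.3 CPM in exposed rats (SD, n = 6 and 5; 2.1 ± 0.22). The acute phase protease inhibitor Serpina3n rose from 2.62 ± 1.31 CPM in air to 11.7 ± 2.7 CPM in exposed rats (2.16 ± 0.28). The rhomboid protease Rhbdl2 (2.45 ± 0.24) and Mab21l3 (2.46 ± 0.32) rose from under 1 CPM on average in air, also with no overlap between the groups.

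A few genes were almost silent in air and measurable in every exposed rat. Calcb, which encodes the beta form of the neuropeptide CGRP, had 6 counts in the 6 air libraries together, 3 of them at 0, and 91 counts in the 5 exposed ones, with at least 5 in each. Its levels were 2.59, 2.87, 1.97, 0.507 and 1.92 CPM in exposed rats (log2 fold change 4.29 ± 0.63 SE, adjusted p = 5.96e-07), and its log2 fold change was 4.88 without air replicate 2. Rgs20 and Rgs9, regulators that end G-protein signals, had 5 and 11 counts in all air libraries against 53 and 48 in the exposed ones. Shisa8 had 8 against 66, and the interferon-induced T cell chemokine Cxcl11 had 13 against 65. At such counts the fold changes (3.73 ± 0.53 for Rgs20, 2.57 ± 0.44 for Rgs9, 3.44 ± 0.41 for Shisa8 and 2.76 ± 0.50 for Cxcl11) are wide, but in all 5 genes the lowest exposed rat was above the highest air rat. In the reverse direction only Chid1 met the same bounds, and it was uneven, at 0.0788 to 6.34 CPM in air, median 0.799, with an adjusted p of 0.0475. Air replicate 3 held its highest value, and without that rat its adjusted p was 0.336. The call was also lost without air replicate 1 (0.0582) and without any single exposed rat (0.0672 to 0.0956).

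**Figure D2:**
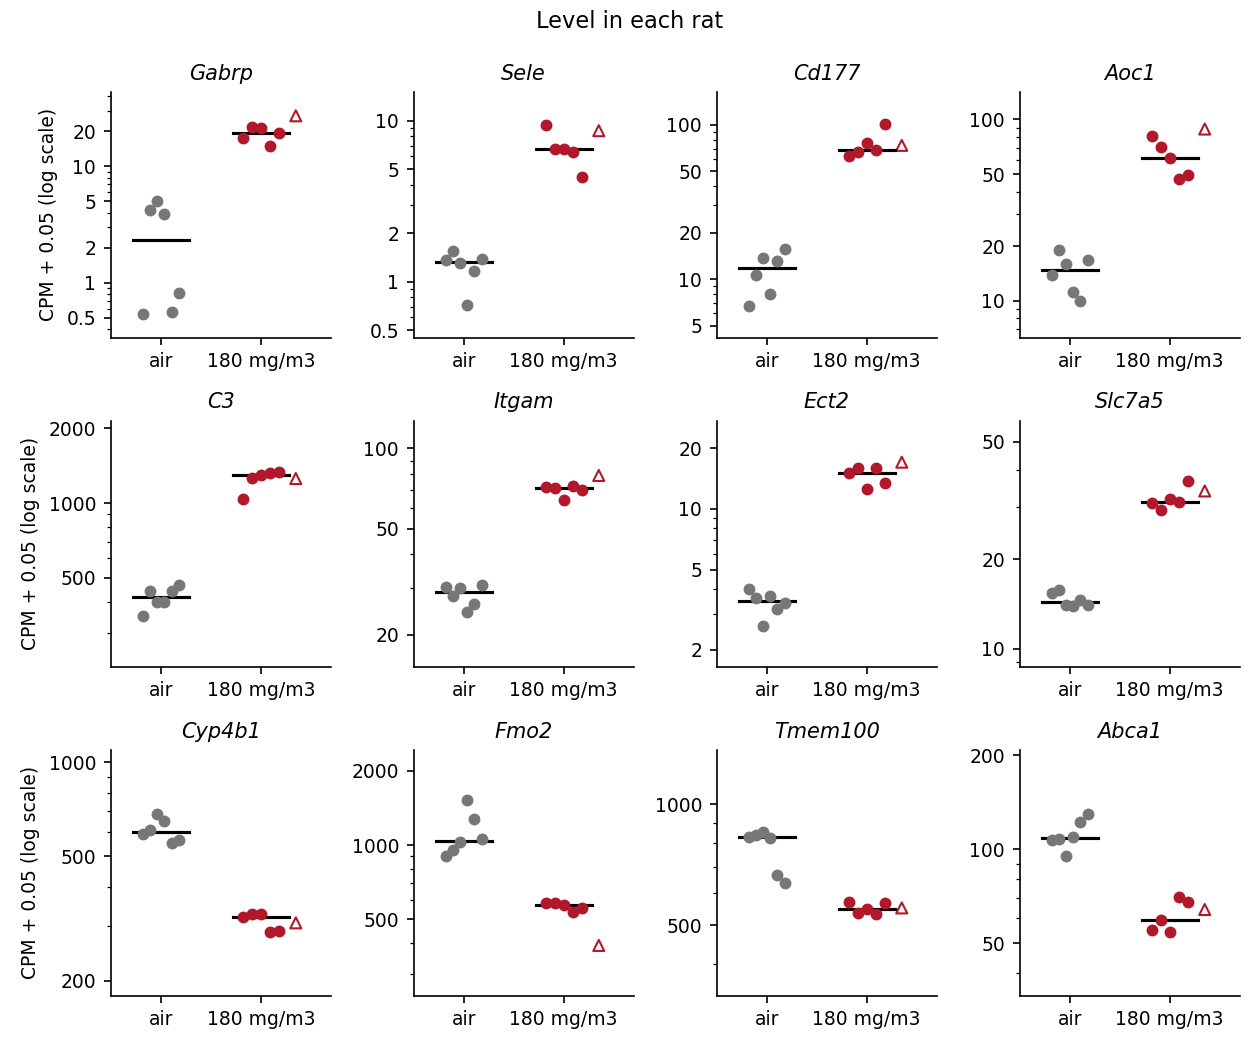
CPM on a log scale (CPM + 0.05) for 12 genes; grey points are the 6 air rats, red points the 5 exposed rats, open triangles the left-out replicate 1, and bars the group medians. The top 2 rows hold genes that rose and the bottom row genes that fell, and the groups do not overlap in any of the 12.

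The genes that gained most mRNA in absolute terms included abundant lung transcripts with small folds. The macrophage lysozyme Lyz2 was at 23487, 21497, 23749.8, 24219 and 22527 CPM in exposed rats and 15456 to 23909 CPM in air, median 17227, so the groups overlapped (log2 fold change 0.35 ± 0.10 SE, adjusted p = 0.00731). Surfactant protein A (Sftpa1), a collectin that binds microbes and particles, was at 10619.9, 10269.9, 10670.4, 11166 and 10827 CPM in exposed rats and 6228 to 8704 CPM in air, median 6699 (0.61 ± 0.10), with no overlap. The related collectin Sftpd rose from 882 ± 116 CPM in air to 1298 ± 46.5 CPM in exposed rats (0.55 ± 0.10). Complement C3 was at 1038, 1262, 1294, 1318 and 1336 CPM in exposed rats and 351 to 467 CPM in air, median 420.2 (1.57 ± 0.11), with no overlap. Pigr, which carries IgA across epithelium, rose from 1425 ± 198 CPM in air to 2239 ± 144.97 CPM in exposed rats (0.64 ± 0.10). Fibronectin (Fn1, 0.34 ± 0.09), beta-actin (Actb, 0.20 ± 0.04), the lysosomal protease Ctsh (0.45 ± 0.10) and the chitinase-like protein Chi3l1 (1.81 ± 0.11) were among the others. With air replicates 2, 3 and 4 left out, Lyz2 and Fn1 no longer passed the test (adjusted p of 0.231 and 0.102).

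By amount in CPM, the largest fall was in Scgb1a1, the secretory protein of club cells (log2 fold change -0.77 ± 0.14 SE, adjusted p = 2.30e-05), and Gsn came next. Gsn, the actin-severing protein gelsolin, was at 4363, 3979, 4778, 4098 and 4022 CPM in exposed rats and 5523 to 6609.7 CPM in air, median 6274 (log2 fold change -0.56 ± 0.06 SE, adjusted p = 3.40e-10). No exposed rat reached the lowest air rat. The P450 enzyme Cyp4b1 was at 319, 328, 326, 287 and 288 CPM in exposed rats and 550.1 to 684 CPM in air, median 599 (-0.98 ± 0.05), and its adjusted p of 7.32e-20 was the smallest of all genes that fell. Fmo2, the flavin monooxygenase of lung, was at 582, 582, 569, 533 and 554 CPM in exposed rats and 902 to 1521 CPM in air, median 1042 (-1.0 ± 0.12). The exposed rats were much closer to each other than the air rats were. The type 1 cell receptor Ager (-0.25 ± 0.08), elastin (Eln, -0.60 ± 0.07), the matrix protein Sparc (-0.23 ± 0.04), caveolin 1 (Cav1, -0.43 ± 0.06), the endothelial growth factor Vegfa (-0.36 ± 0.06) and the endothelial anticoagulant receptor thrombomodulin (Thbd, -0.38 ± 0.07) also fell. Ager was the 1 of these that did not pass with air replicates 2, 3 and 4 left out (adjusted p = 0.0881) or with the air rats of all runs as the control (0.137).

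By fold, the falls below the largest ones were in genes of varied function. Adhfe1, a mitochondrial alcohol dehydrogenase, was at 3.33, 3.72, 3.11, 3.55 and 3.33 CPM in exposed rats and 6.88 to 10.9 CPM in air, median 7.74 (log2 fold change -1.26 ± 0.16 SE, adjusted p = 1.70e-08). Hsd11b2, which inactivates glucocorticoids, was at 4.69, 3.83, 3.52, 4.56 and 3.83 CPM in exposed rats and 7.77 to 12.1 CPM in air, median 9.25 (-1.22 ± 0.16). In both genes the exposed rats were in a narrow band below every air rat. The adrenergic receptors Adra2b (-1.04 ± 0.23) and Adra1a (-0.96 ± 0.14), the ATP-gated channel P2rx1 (-0.88 ± 0.08), the peptide transporter Slc15a2 (-0.95 ± 0.10) and the matrix protein Spon2 (-0.95 ± 0.14) fell with no overlap. The sterol exporter Abca1 was at 55.1, 59.1, 54.2, 70.1 and 67.7 CPM in exposed rats and 95.3 to 130.1 CPM in air, median 108.7 (-0.88 ± 0.09).

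Some falls were small but had little spread. Mamdc2 went from 124 ± 3.28 CPM in air to 78.1 ± 3.36 CPM in exposed rats (log2 fold change -0.68 ± 0.05 SE, adjusted p = 1.13e-15). The amino acid transporter Slc7a10 (-0.69 ± 0.07), the receptor Fgfr4 (-0.55 ± 0.05), the kinase Camkk1 (-0.53 ± 0.05), Nrep (-0.51 ± 0.05) and the thyroid hormone receptor Thra (-0.46 ± 0.05) were alike in this. Each of the 6 was among the 15 smallest p-values of the genes that fell, with a fold under 2.

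The gene lists that follow were compiled with earlier results of these data known, so their counts describe the lists and give no separate evidence for them. Each count can be read against the background of 12.0% of genes up and 10.9% down. Beginning with inflammation, the feedback and inducible genes of NF-kB, the transcription factor of inflammatory signals, mostly rose: 13 of 22 tested members rose, 0 fell and 9 did not pass the test, with a median log2 fold change of 0.34. The RNase Zc3h12a, which destroys cytokine mRNAs, rose most (1.09 ± 0.11), and the rises included the co-regulators Bcl3 (0.93 ± 0.12) and Nfkbid (0.71 ± 0.11) and the ubiquitin ligase Birc3 (0.75 ± 0.12). Nfkbiz, an inducible co-activator, was at 48, 46.4, 39.2, 51.9 and 51.8 CPM in exposed rats and 26.9 to 35.6 CPM in air, median 29.6 (0.64 ± 0.10). The inhibitor Tnip1 (0.05 ± 0.04) did not pass the test, though it did with the air rats of all runs as the control (0.08, adjusted p = 0.0487). Nfkbia (-0.56), Tnfaip3 (0.03), Traf1 (0.02) and Ripk2 (0.07) were others of the 9 that did not pass.

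The promoter of Nfkbiz is shown because it holds an NF-kB core directly before the start site. The sequence is the 250 bases before the start site in the RefSeq table of GRCr8 (chr11:58251471-58251720, plus strand), 5′ to 3′ along the gene, with the core in capitals, its first base 12 bases before the start site.
Nfkbiz: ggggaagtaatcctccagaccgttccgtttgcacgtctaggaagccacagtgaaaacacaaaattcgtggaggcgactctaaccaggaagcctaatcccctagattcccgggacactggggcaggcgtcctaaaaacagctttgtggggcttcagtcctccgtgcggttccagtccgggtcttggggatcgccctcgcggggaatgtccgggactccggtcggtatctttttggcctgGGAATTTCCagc
The core searched was GGANTTTCC on both strands. It lay in the promoters of 4 of the 16 members of this list with a single entry in the table, and in 130 of 9958 such promoters of all genes tested (1.31%). The AP-1 site TGANTCA lay in 4 of the 16 and in 4.65% of all. These matches are letters in a window and were not tested as sites.

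Some leukocyte adhesion genes of white cells and of vessels changed: 9 of 20 tested members rose, 2 fell and 9 did not pass the test. The integrin chain Itgam of myeloid cells was at 71.4, 70.9, 64.2, 72.3 and 69.6 CPM in exposed rats and 24.3 to 30.7 CPM in air, median 28.9 (log2 fold change 1.30 ± 0.12 SE, adjusted p = 8.68e-12), with a gap of more than the highest air value between the groups. P-selectin (Selp) rose by 1.46 and the integrin chain Itgax by 0.85 on the log2 scale, with E-selectin above both. The endothelial Icam2 fell (-0.33 ± 0.08), with an adjusted p of 0.0505 once air replicates 2, 3 and 4 were left out. In the list of type 2 cytokine genes, 3 of 15 tested members rose, 1 fell and 11 did not pass the test. The cytokine genes Il4, Il5, Il13 and Il25 did not pass the count filter and were not tested, so these counts say nothing about them. Spdef, the goblet cell transcription factor, rose (0.47 ± 0.12), as did the chemokine Ccl11 (0.72), and the matrix protein Postn fell (-0.30 ± 0.04). Type 2 chemokine genes outside this list were among the largest rises by fold, so its counts do not cover them.

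Receptors by which macrophages take up particles and dead cells were split. In this list 10 of 25 tested members rose, 4 fell and 11 did not pass the test. The inhibitory Fc receptor Fcgr2b was at 41.1, 40.6, 36.9, 34.2 and 39.4 CPM in exposed rats and 10.9 to 19.3 CPM in air, median 15.4 (1.31 ± 0.12). Havcr2, the checkpoint receptor TIM-3, rose from 1.8 ± 0.517 CPM in air to 6.29 ± 0.602 CPM in exposed rats (1.79 ± 0.19). Both had groups far apart. The C-type lectin Clec4e (0.87 ± 0.14) and the amplifying receptor Trem1 (0.75 ± 0.12) rose too, whereas the beta-glucan receptor Clec7a was at 148.8, 117, 126, 138 and 117 CPM in exposed rats and 158.4 to 263 CPM in air, median 185 (-0.60 ± 0.11), lower in every exposed rat. Fcgr3a (-0.60 ± 0.13) and Axl (-0.37 ± 0.09) fell as well.

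Complement genes rose at several steps of the cascade: 14 of 25 tested members rose, 2 fell and 9 did not pass the test, with a median of 0.46. Of the first steps, C1s was at 171, 175, 157.8, 168 and 167 CPM in exposed rats and 70.7 to 96.3 CPM in air, median 76.3 (1.07 ± 0.09), and C1qb rose by 0.82. Of the alternative pathway, factor B (Cfb) rose (0.71 ± 0.08) while factor D (Cfd), which adipocytes secrete, fell (-0.67 ± 0.14). Some other members of the adipose list described further on fell too. The terminal components C6 (1.32 ± 0.15) and C7 (0.65 ± 0.06) and the inhibitors Cfi (1.65 ± 0.23) and Serping1 (0.40 ± 0.06) rose with C3. The groups did not overlap in 13 of the 25 members with exposed rats higher and in 2 with exposed rats lower. Over all genes tested these shares were 7.8% and 5.16%.

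Genes of clotting and of lipid mediators were more mixed. Of coagulation and fibrinolysis genes, 8 of 24 tested members rose, 1 fell and 15 did not pass the test. Thrombospondin 1 (Thbs1, 1.02 ± 0.17), the urokinase receptor Plaur (0.62 ± 0.13) and F2rl1, a receptor cleaved by trypsin-like proteases (0.64 ± 0.11), rose. Of eicosanoid genes, 4 of 29 tested members rose, 4 fell and 21 did not pass the test. The PAF hydrolase Pla2g7 (0.90 ± 0.16) rose, and the prostaglandin-degrading enzyme Hpgd (-0.55 ± 0.10) and the leukotriene enzyme Alox5 (-0.27 ± 0.06) fell. The list leaves out Alox15 and Pla2g2d, which were among the largest falls by fold of all genes, so its counts do not include them.

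Among ion and fluid transporters of the airway, 9 of 27 tested members rose, 1 fell and 17 did not pass the test. Besides the exchanger Slc26a4, which was at 69, 67.9, 67.3, 57.3 and 65.8 CPM in exposed rats and 3.44 to 11.9 CPM in air, median 5.5, the rises included the chloride channel Cftr (0.97 ± 0.15), the potassium channel Kcnn4 (0.91 ± 0.12) and the water channel Aqp3 (1.34 ± 0.27). The endothelial water channel Aqp1 fell (-0.26 ± 0.05). Of ligands and keratins of epithelial repair, 5 of 18 tested members rose, 0 fell and 13 did not pass the test, with epiregulin (Ereg, 1.10 ± 0.30) and Krt15 (1.20 ± 0.30) highest. The receptor Egfr itself was at -0.07 ± 0.08 and did not pass. Ereg lost its call with air replicates 2, 3 and 4 left out (adjusted p = 0.143). Those 3 rats held the most large-airway RNA, and its part in these lists was not tested.

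In the program of multiciliated cells, 9 of 22 tested members rose, 0 fell and 13 did not pass the test. The master regulator Mcidas (2.40 ± 0.30), the centriole genes Stil (2.41 ± 0.17), Ccdc67 (1.87 ± 0.14, known as Deup1) and Plk4 (1.68 ± 0.13) rose strongly, whereas Foxj1, which switches on motile cilium genes, rose less (0.62 ± 0.13). Cell division genes rose in the same rats, as described below, and the part of dividing cells in the rises of Stil and Plk4 was not tested. Of junction genes, 9 of 30 tested members rose, 3 fell and 18 did not pass the test: the gap junction protein Gja1 (0.64 ± 0.06) and the claudin Cldn10 (0.89 ± 0.15) rose, and the endothelial claudin Cldn5 fell (-0.51 ± 0.13, adjusted p = 0.104 with air replicates 2, 3 and 4 left out). Among markers of basal and tuft cells, 3 of 10 tested members rose, 2 fell and 5 did not pass the test, and among neuroendocrine and nerve genes, 2 of 9 tested members rose, 2 fell and 5 did not pass the test. There the tachykinin precursor Tac1 was at 0.247, 0.638, 0.104, 0.101 and 0.202 CPM in exposed rats and 1.06 to 1.81 CPM in air, median 1.38 (-2.46 ± 0.36), so that Calcb and Tac1 moved in opposite directions. Exposed replicate 3 held the most Tac1 among the exposed rats, and without it the log2 fold change was -3.10.

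Most genes of cell division rose. Of kinetochore, spindle and cytokinesis genes, 52 of 56 tested members rose, 0 fell and 4 did not pass the test, with a median of 1.31. Ect2, which drives the contractile ring, was at 15.1, 15.9, 12.4, 15.8 and 13.4 CPM in exposed rats and 2.59 to 3.93 CPM in air, median 3.45 (log2 fold change 2.09 ± 0.15 SE, adjusted p = 2.14e-15), with every exposed rat far above every air rat. The kinesins Kif11 (1.52 ± 0.12) and Kif20a (1.77 ± 0.17), the mitotic kinase Plk1 (1.40 ± 0.12), anillin (Anln, 1.95 ± 0.18) and the kinase Nek2 (2.34 ± 0.20) rose alike. For origin licensing and the replication fork, 29 of 42 tested members rose, 0 fell and 13 did not pass the test, at a lower median of 0.52. The licensing factor Cdc6 (2.12 ± 0.24) and Uhrf1 (1.88 ± 0.18), which keeps DNA methylation through replication, led, and the helicase subunits Mcm2 (0.68 ± 0.07) and Mcm3 (0.80 ± 0.08) followed. Of recombination and Fanconi repair genes, 18 of 34 tested members rose, 1 fell and 15 did not pass the test, the rises including Exo1 (2.40 ± 0.31) and Fancd2 (1.36 ± 0.18). Of the targets of p53, 6 of 24 tested members rose, 1 fell and 17 did not pass the test.

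The Ect2 promoter is shown because it holds both motifs known from mitotic genes, the cell cycle homology region TTTGAA and CCAAT boxes, in capitals. It is the 250 bases before the start site (chr2:111966627-111966876, minus strand) of the same table.
Ect2: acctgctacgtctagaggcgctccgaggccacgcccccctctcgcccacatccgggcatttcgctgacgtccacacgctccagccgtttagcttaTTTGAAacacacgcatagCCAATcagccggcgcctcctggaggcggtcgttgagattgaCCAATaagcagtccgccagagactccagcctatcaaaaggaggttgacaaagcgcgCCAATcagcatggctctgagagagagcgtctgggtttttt
The single TTTGAA begins 155 bases before the start site, with 3 CCAAT boxes after it, and none of these overlap. On either strand, TTTGAA lay in 21 of 48 promoters of the kinetochore list, in 3 of 35 of the replication list and in 1058 of 9958 promoters of all genes tested (10.6%). CCAAT lay in 26 of the 48, 19 of the 35 and 35.1% of all.

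Of cholesterol synthesis genes, 22 of 24 tested members rose, 0 fell and 2 did not pass the test, with a median of 0.68. Idi1, which isomerises the isoprenoid unit, was at 86.4, 85.9, 81.5, 72.7 and 81.8 CPM in exposed rats and 34.8 to 42.2 CPM in air, median 36 (log2 fold change 1.11 ± 0.10 SE, adjusted p = 2.57e-12). All exposed rats were above all air rats. Cyp51 (0.91 ± 0.08) and Hmgcs1 (0.96 ± 0.10) were close to it, and in the same rats the sterol exporters Abca1 and Abcg1 fell (-0.60 ± 0.10 for Abcg1). The Idi1 promoter is shown for its CCAAT boxes, here read on the other strand as ATTGG and set in capitals (chr17:66547525-66547774, minus strand, 250 bases before the start site).
Idi1: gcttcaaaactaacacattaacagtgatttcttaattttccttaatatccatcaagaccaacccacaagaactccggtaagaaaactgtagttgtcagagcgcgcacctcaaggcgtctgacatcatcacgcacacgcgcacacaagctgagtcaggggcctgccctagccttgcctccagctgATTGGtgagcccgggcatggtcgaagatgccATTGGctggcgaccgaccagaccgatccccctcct
CCAAT lay in 14 of 17 promoters of this list against 35.1% of all, while the sterol response core TCACNCCAC lay in 0 of the 17 and in 1.0% of all, all within 250 bases before the start site.

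Where they passed the test, glycolysis genes mostly rose and fatty acid oxidation genes mostly fell. For glycolysis 11 of 22 tested members rose, 1 fell and 10 did not pass the test, with the hexokinase Hk2 (0.79 ± 0.11) and the lactate exporter Slc16a3 (0.72 ± 0.08) among the rises. For fatty acid oxidation 1 of 28 tested members rose, 7 fell and 20 did not pass the test, the falls including the nuclear receptor Pparg (-0.53 ± 0.13). The median log2 fold change of these 28 was only -0.07. For fatty acid synthesis 4 of 20 tested members rose, 2 fell and 14 did not pass the test: the acyl-CoA ligase Acsl4 rose (0.57 ± 0.11) and the regulator Srebf1 fell (-0.47 ± 0.08). Of serine, one-carbon and nucleotide synthesis genes, 17 of 32 tested members rose, 1 fell and 14 did not pass the test, led by the ribonucleotide reductase subunit Rrm2 (1.77 ± 0.14) and Mthfd2 (0.70 ± 0.10).

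Of amino acid transporters and targets of the stress factor ATF4, 10 of 26 tested members rose, 3 fell and 13 did not pass the test. Slc7a5, the large neutral amino acid transporter, was at 30.9, 29.4, 32, 31.2 and 36.6 CPM in exposed rats and 13.8 to 15.7 CPM in air, median 14.3 (log2 fold change 1.13 ± 0.09 SE, adjusted p = 1.99e-14), a narrow range in both groups. The cystine transporter Slc7a11 rose from 0.941 ± 0.235 CPM in air to 3.76 ± 0.714 CPM in exposed rats (1.98 ± 0.22). Atf4 itself (0.07 ± 0.09) did not pass the test. Ddit4 fell (-1.13 ± 0.40), but it ran over 29.6 to 117 CPM in air, median 94.7, and 4 of the exposed rats, at 45.4, 47.2, 48.8, 31.6 and 21.9 CPM, lay within that range. Without single libraries its adjusted p was 0.0678 (air replicate 3), 0.0708 (air replicate 4), 0.0727 (air replicate 5), 0.0747 (exposed replicate 5) and 0.0950 (exposed replicate 6). Of cytosolic tRNA synthetases, 10 of 23 tested members rose, 0 fell and 13 did not pass the test, all with small folds, as in Yars (0.33 ± 0.05).

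Of iron handling genes, 13 of 23 tested members rose, 2 fell and 8 did not pass the test. The siderophore binder Lcn2 (2.57 ± 0.23), the hemoglobin scavenger Hp (1.04 ± 0.13), the ferrireductase Steap3 (0.91 ± 0.14) and the metal importer Slc39a8 (0.77 ± 0.08) rose. Of metallothionein and zinc genes, 2 of 5 tested members rose, 0 fell and 3 did not pass the test. Mt2A was at 6.91, 12.2, 9.53, 6.39 and 7.06 CPM in exposed rats and 1.43 to 2.77 CPM in air, median 2.0 (2.03 ± 0.25). Mt1a rose by 0.88. The Mt2A promoter is shown for its metal response cores TGCGCNC, in capitals, on both strands (chr19:10838709-10838958, minus strand, 250 bases before the start site).
Mt2A: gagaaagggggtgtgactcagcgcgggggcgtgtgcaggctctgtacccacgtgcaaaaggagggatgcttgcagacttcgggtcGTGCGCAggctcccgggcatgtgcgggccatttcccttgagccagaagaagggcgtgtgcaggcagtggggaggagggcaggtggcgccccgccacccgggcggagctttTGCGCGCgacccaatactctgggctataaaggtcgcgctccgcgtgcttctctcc
That core lay in 3 of 3 metallothionein list promoters and in 22.2% of all, but the same 3 also held the CCAAT box (35.1% of all) and the antioxidant response core TGACNNNGC (12.4% of all). Glutathione and aldehyde enzymes did not move together: 3 of 30 tested members rose, 5 fell and 22 did not pass the test. The gut-type peroxidase Gpx2 (0.53 ± 0.12) and the glutathione synthetase Gss (0.36 ± 0.09) rose, and Gpx3 (-0.37 ± 0.08), Gstm2 (-0.48 ± 0.11) and Aldh1a1 (-0.33 ± 0.07) fell.

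**Figure D3:**
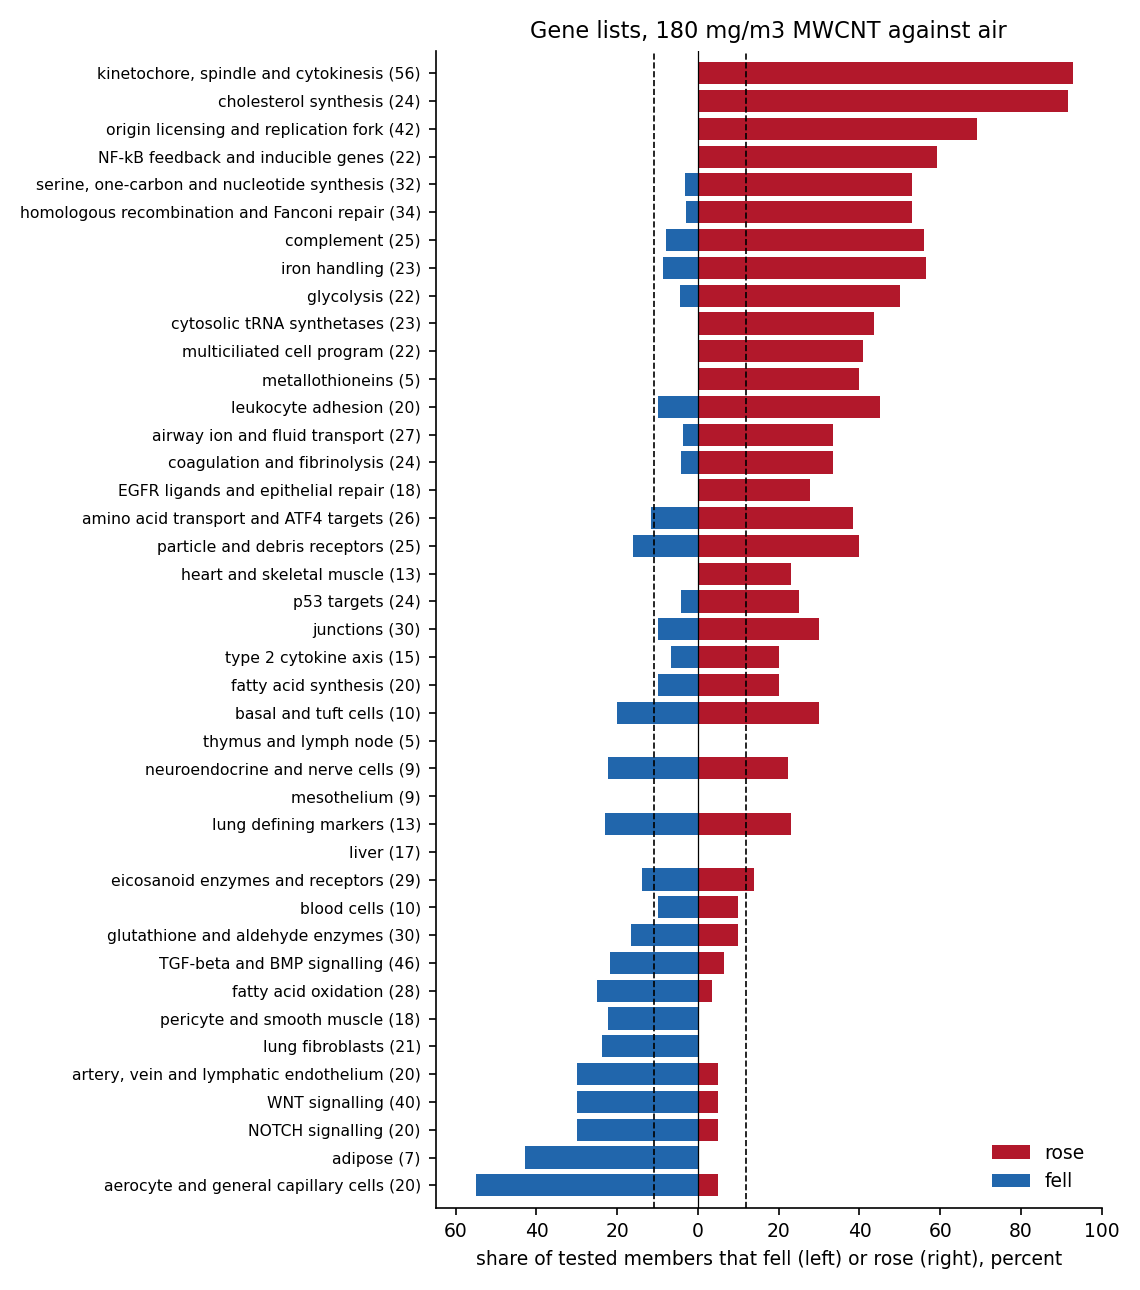
For each gene list, the share of tested members that rose (red, to the right) and fell (blue, to the left), with the number tested in brackets; dashed lines mark the shares over all genes tested, 12.0% up and 10.9% down. The kinetochore, cholesterol and replication lists extend farthest to the right and the capillary and adipose lists farthest to the left.

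Vessel and stromal genes that passed the test mostly fell, by small amounts. Of aerocyte and general capillary genes, 1 of 20 tested members rose, 11 fell and 8 did not pass the test, with a median of -0.29. Tmem100, a BMP-dependent membrane protein of capillaries, was at 572, 537, 547, 533 and 567 CPM in exposed rats and 638 to 855 CPM in air, median 828 (log2 fold change -0.50 ± 0.08 SE, adjusted p = 8.92e-07). Every exposed rat was below every air rat. The endothelin receptor Ednrb (-0.31 ± 0.06), the fenestra protein Plvap (-0.38 ± 0.07), the carbonic anhydrase Car4 of aerocytes (-0.40 ± 0.10) and the VEGF receptor Kdr (-0.26 ± 0.07) fell by similar amounts. With air replicates 2, 3 and 4 left out, Car4 and Kdr did not pass (adjusted p of 0.105 and 0.0718). Of artery, vein and lymphatic genes, 1 of 20 tested members rose, 6 fell and 13 did not pass the test. Ephb4, the ephrin receptor of veins, was among the falls (-0.25 ± 0.06), but did not pass with air replicates 2, 3 and 4 left out (adjusted p = 0.0920). Of pericyte and smooth muscle genes, 0 of 18 tested members rose, 4 fell and 14 did not pass the test, and Pdgfrb, the pericyte growth factor receptor, fell (-0.31 ± 0.06). Of fibroblast genes, 0 of 21 tested members rose, 5 fell and 16 did not pass the test; Cd34 was at 79.1, 75.4, 77.4, 78.4 and 85.6 CPM in exposed rats and 103 to 115 CPM in air, median 108 (-0.46 ± 0.07).

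Developmental signalling lists had more falls than rises. Of TGF-beta and BMP genes, 3 of 46 tested members rose, 10 fell and 33 did not pass the test. The endothelial receptors Acvrl1 (-0.27 ± 0.05) and Eng (-0.28 ± 0.06), the feedback inhibitor Smad6 (-0.42 ± 0.10) and the ligand Bmp2 (-0.66 ± 0.20) fell, whereas the receptor Tgfbr1 was at 88.5, 89.7, 88.7, 93.3 and 93.4 CPM in exposed rats and 53.4 to 64.1 CPM in air, median 55.8 (0.67 ± 0.11). With air replicates 2, 3 and 4 left out, Smad6 and Bmp2 did not pass (adjusted p of 0.133 and 0.337). Of WNT genes, 2 of 40 tested members rose, 12 fell and 26 did not pass the test. The receptor Fzd1 (-0.39 ± 0.06) and the ligand Wnt11 (-0.50 ± 0.11) fell, and the secreted antagonist Frzb rose (1.0 ± 0.15). Members of opposite role moved the same ways: the WNT agonist Rspo3 rose (1.24), and the inhibitors Wif1 (-0.29) and Nkd1 (-0.36) fell. Of NOTCH genes, 1 of 20 tested members rose, 6 fell and 13 did not pass the test, with the glycosyltransferase Mfng among the falls (-0.34 ± 0.09) and the DNA-binding Rbpj rising (0.39 ± 0.07).

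**Figure D4:**
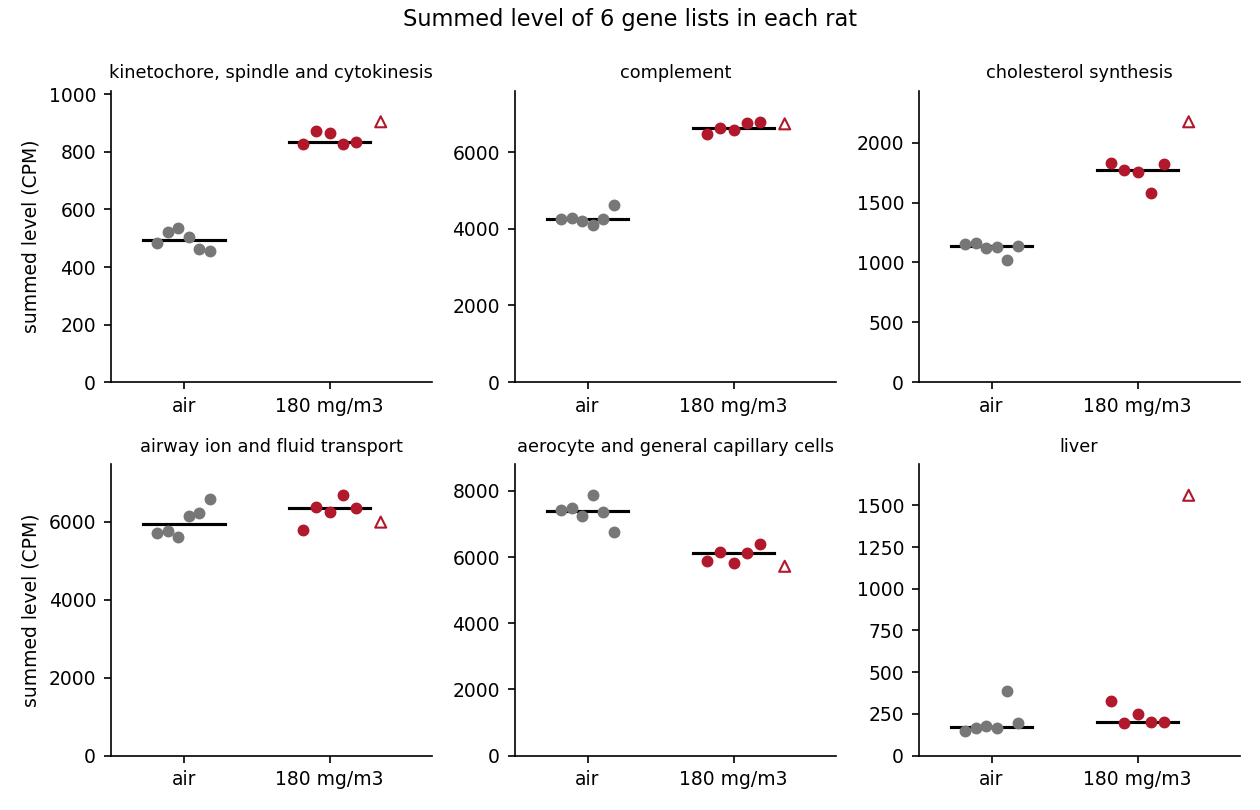
Summed CPM of 6 gene lists in each rat, on a vertical axis that starts at 0; grey points are the 6 air rats, red points the 5 exposed rats, the open triangle the left-out replicate 1, and bars the medians. The kinetochore, complement and cholesterol sums are higher in every exposed rat than in every air rat.

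Markers of other tissues in the lung piece were set beside these results. Of liver genes, 0 of 17 tested members rose, 0 fell and 17 did not pass the test; their sum was 149.6 to 386 CPM in air and 197 to 329.5 CPM in exposed rats. Of heart and skeletal muscle genes, 3 of 13 tested members rose, 0 fell and 10 did not pass the test, with a sum of 31.8 to 389 CPM in air and 47.9 to 166 CPM in exposed rats. Of adipose genes, 0 of 7 tested members rose, 3 fell and 4 did not pass the test, with a sum of 175 to 197 CPM in air and 144 to 156 CPM in exposed rats. The lipid droplet gene Cidec fell with Cfd and Lipe. Adipoq, Plin1, Lep, Ucp1 and Retn did not pass the count filter and were not tested, so whether the pieces held adipose tissue is not settled by this list. Of blood cell genes, 1 of 10 tested members rose, 1 fell and 8 did not pass the test, the rise being Pf4 (0.80 ± 0.18) and the fall Gp9 (-1.43 ± 0.40, adjusted p = 0.0735 with air replicates 2, 3 and 4 left out), both platelet genes. Mesothelium and lymph node lists had 0 members passing out of 9 and 5. The part of these tissues in the gene lists above was not tested.

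Grouped by symbol root alone, over roots with at least 12 tested genes, the chemokine roots had the highest shares of rises: 8 of 12 Cxcl genes and 9 of 16 Ccl genes. Among the Cxcl genes the neutrophil chemokines Cxcl6 (3.16 ± 0.35) and Cxcl1 (1.94 ± 0.22) had the smallest p-values. Toll-like receptors followed with 6 of 13, led in p by Tlr12 (1.10 ± 0.14) and Tlr10 (1.43 ± 0.20), then the mucin-type glycosyltransferases with 6 of 14, such as Galnt3 (0.75 ± 0.09) and Galnt12 (0.73 ± 0.14), and the Rgs genes with 8 of 19. Falls in the same roots numbered 1 for Cxcl, 2 for Ccl, 0 for the Toll-like receptors, 2 for the glycosyltransferases and 3 for Rgs, and the glycosyltransferases had a median log2 fold change of -0.06. On the falling side were 5 of 12 T-box factors (Tbx5 at -0.33 ± 0.06, Tbx2 at -0.29 ± 0.06, Tbx4 at -0.22 ± 0.06), with 0 rises. At the still end, 0 of 45 Rpl ribosomal protein genes, 0 of 17 Pcdhb protocadherins and 1 of 42 Mrpl mitochondrial ribosomal protein genes passed the test. These roots were ranked after the counts were known and are a description.

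The nearest dose, 90 mg/m3, was given in another run with its own air rats (4 exposed and 6 air libraries), so dose and run cannot be told apart. No control is shared between the 2 runs. At 90 mg/m3, 1775 genes passed the test against their air group, 1465 of them also at 180 mg/m3 and all 1465 in the same direction. Of the 77 genes that changed more than 4-fold at 180 mg/m3, 31 also changed more than 4-fold at 90. For genes described above, the log2 fold changes at 180 and at 90 were 1.57 and 1.18 for C3, 2.09 and 1.46 for Ect2, 0.61 and 0.26 for Sftpa1, and -0.98 and -0.69 for Cyp4b1. These genes and the 77 were picked by their values at 180 mg/m3, so the values at the 2 doses are not an even comparison. Tested as a difference of effects over all genes, 0 genes (0.0%) passed in edgeR's quasi-likelihood test, the smallest adjusted p being 0.329. At an unadjusted p under 0.05 there were 892 genes (5.58%). With DESeq2's size factors there were also 0, with limma voom 2, and with edgeR on the 180 and 90 runs alone 1. The median SE of the difference was 0.14 on the log2 scale, so a small difference in a single gene was not detectable here.

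**Figure D5:**
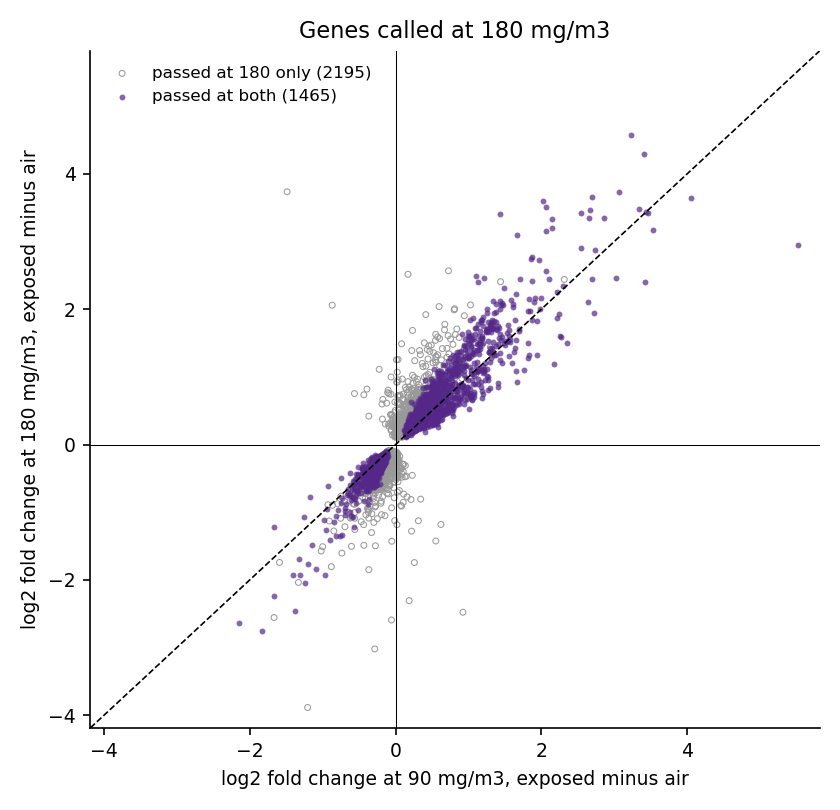
Each point is 1 of the 3660 genes called at 180 mg/m3; the horizontal axis is the log2 fold change at 90 mg/m3 and the vertical axis that at 180 mg/m3, each against its own air group, with the line of equal effect dashed. Filled points are the 1465 genes that passed the test at both doses, and they lie in the upper right and lower left of the plot.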

How the data were processed

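RNA-seq libraries were made from lung pieces of 60 rats, and the authors deposited 1 table of raw counts, with a row for each gene symbol, obtained with bcl2fastq 2.19, Trimmomatic 0.35, HISAT2 2.1.0, Cufflinks, SAMtools 1.8 and HTSeq 0.11.2, per the submitters' processing notes. Which genome build, annotation and strand setting were used is not given in the sources used here; overlapping and antisense genes cannot be told apart. The kit was stranded and PCR ran without molecular identifiers, per the labels' protocols, so counts are not independent molecules.

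The tests were run in edgeR 4.0.16 under R 4.3.3. A robust quasi-likelihood model with TMM scaling was fitted to the 53 libraries without an outlier label, in 10 groups of run by treatment, after filterByExpr with a minimum count of 10 kept 15995 of 30045 rows (99.9% of counts). The contrast MWCNT_180 minus air_180 was tested over all genes, two-sided, with Benjamini-Hochberg adjustment and a threshold of 0.05, and the effect at 180 minus that at 90 mg/m3 likewise. All adjusted p-values are from this edgeR test unless another tool is named. Standard errors (SE, given after ±) equal the log2 fold change over the root of its F statistic. Levels are in CPM, that is, per 1000000 counts of a library, with the SD where a mean is given. The script was checked on simulated counts. Each library is 1 rat, and no pair of libraries in a group was a duplicate (smallest chi-square per degree of freedom 3.16).

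Genes were named by a rule: the 40 largest rises and falls by fold without overlap and with a mean of at least 1 CPM, the 15 largest by change in CPM, the 15 smallest p-values each way, genes at no more than 0.2 CPM in 1 group and at least 1 CPM in the other, up to 9 members per list, and members of the symbol roots at the extremes. Symbols without a gene name were passed over. The members, the lists and the rule were chosen with earlier results of these data known. Promoters came from RefSeq for GRCr8, matched by symbol: 10760 of the tested genes had an entry and 9958 exactly 1. Motifs were searched on both strands in the 250 bases before the start site. Alternatives were other scalings, filters, sample choices, DESeq2 1.42.0, limma 3.58.1 voom with quality weights, and leaving out each library. Thinning to 8000000 counts and leaving out air replicates 2, 3 and 4 were added after seeing the data.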

Additional observations from a re-analysis of the deposited data

Results flagged for a closer look

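Within a group, the gap between 1 rat and the next was large for its group's range in 24 of 348 gene and group pairs looked at (Dixon's ratio above its 95% critical value). Chance flags about 1 in 20 groups. Exposed replicate 2 stood apart as the highest of its group in Ccl12 (4.44 CPM, next 3.04), Noxa1 (6.67 CPM, next 4.16) and Rgs9 (1.85 CPM, next 1.01). Exposed replicate 2 stood apart as the lowest of its group in C3 (1038 CPM, next 1262). Exposed replicate 3 stood apart as the highest of its group in Alox5 (45 CPM, next 39.4) and Tac1 (0.638 CPM, next 0.247). Exposed replicate 5 stood apart as the lowest of its group in Slc26a4 (57.3 CPM, next 65.8). Air replicate 1 stood apart as the lowest of its group in Cldn10 (7.87 CPM, next 10.7). Air replicate 2 stood apart as the highest of its group in Tgfbr1 (64.1 CPM, next 57.3). Air replicate 3 stood apart as the highest of its group in Chid1 (6.34 CPM, next 1.47). Air replicate 3 stood apart as the lowest of its group in Cidec (1.16 CPM, next 2.29). Air replicate 4 stood apart as the lowest of its group in Selp (2.2 CPM, next 4.13). Air replicate 5 stood apart as the highest of its group in Ereg (1.63 CPM, next 0.864), Fn1 (2031 CPM, next 1837), Serpina3n (5.19 CPM, next 2.46) and Alb (146.5 CPM, next 15). Air replicate 5 stood apart as the lowest of its group in Bcl3 (10.5 CPM, next 17.9). Air replicate 6 stood apart as the highest of its group in Acsl4 (225 CPM, next 167), Cfb (918 CPM, next 763), Cfi (17.3 CPM, next 8.69), Lyz2 (23909 CPM, next 17726), Sftpa1 (8704 CPM, next 6919) and Trem1 (11.5 CPM, next 8.65). Air replicate 6 stood apart as the lowest of its group in Vegfa (1571 CPM, next 1724). The pairs share their rats, and the part of any single rat's RNA in them was not tested.

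The left-out replicate 1 of MWCNT_180 entered the fit only in the alternative that included it. It lay above all 6 air rats in 1712 of the genes that rose and below all 6 in 1401 of those that fell, without a count over all genes tested. It also held the most albumin RNA of the run.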

How the results depend on the processing

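The counts of genes that rose and fell stayed within 1.5 times the reported ones in all alternatives. With 1 library left out, rises numbered 1613 to 1855 and falls 1528 to 1796. With replicate 1 of MWCNT_180 included, 2177 genes rose and 2147 fell, and with the air rats of all runs as the control 2637 and 2264. DESeq2 gave 1938 and 1697, limma voom 2305 and 2173, and library totals without TMM 2026 and 1568. For the difference of effects between 180 and 90 mg/m3, with 0 genes called, the 180 and 90 runs alone gave 1 and limma voom 2, and leaving out any 1 library gave 0; the cause was not tested.

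Alox15, Pla2g2d, Ccl11, Rspo3, Wif1 and Nkd1 were not part of this check. Of the 167 other genes named in the report that passed the test, all but 14 passed in the same direction under each of the 22 alternatives they were tested in. These 14 all lost the call with air replicates 2, 3 and 4 left out, which leaves 3 air rats. Chid1 and Ddit4 among them also lost it without single libraries and under limma voom, and both of them and Ager with the air rats of all runs as the control. Chid1 also lost it with no filter (adjusted p = 0.0771) and after thinning (0.0580), and Ddit4 when the 11 libraries of the 180 run were fitted alone (0.0572). Tnip1, which had not passed, did so with the air rats of all runs as the control. No paired analysis was possible because the labels share no replicate numbers between exposed and air rats. Depth limits the genes under about 1 CPM, where a library holds about 10 counts. Dose and exposure run cannot be told apart.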
